A study of Mus musculus with 9 samples.

Results

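The genes described here are 7 genes of the leukotriene pathway, Cysltr1, Cysltr2, Alox5, Alox5ap, Ltc4s, Lta4h and Ltb4r1, out of 22180 genes measured by a probe set with a single gene symbol. They were listed by function, and the list was drawn up because Cysltr2 is higher with each deleted Bcl11a allele. The readings of Cysltr2 are therefore given as a description, without a test. Of the 7 genes, 6 passed the filter on low values and Cysltr1 did not.

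Leukotrienes are lipid mediators made from arachidonic acid, chiefly by myeloid and mast cells. Phospholipases release the fatty acid, and 5-lipoxygenase (Alox5), helped by its activating protein in the nuclear membrane (Alox5ap), turns it into the unstable intermediate LTA4. The hydrolase Lta4h makes LTB4, a neutrophil attractant read by the receptor Ltb4r1, while the synthase Ltc4s joins LTA4 to glutathione to give LTC4, the first cysteinyl leukotriene, which peptidases trim after export. Cysltr1 and Cysltr2 are the classical G protein-coupled receptors for cysteinyl leukotrienes and signal largely through Gq proteins and calcium.

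Hematopoietic stem cells (HSCs) were sorted from the marrow of mice aged 6 to 8 months that carried a floxed Bcl11a gene, a zinc finger repressor known for its part in globin switching and lymphoid development. Each mouse had been injected 5 times with poly(I:C), which mimics viral RNA and through interferon switches on the Mx1-Cre transgene. Wild-type mice (WT) had both alleles floxed and no Cre, heterozygous mice (Het) had 1 floxed allele and Cre, and knockout mice (KO) had both alleles floxed and Cre. The WT group thus also differs from both other groups in lacking Cre, and only the comparison of KO with Het is made among Cre carriers. Each genotype has 3 arrays of separate biological replicates. The sort took lineage-negative, Sca-1+, Kit+, CD48-, Flt3-, CD150+ cells, YFP-positive or YFP-negative. The labels do not say which arrays used which, so it is not known whether YFP status differed between the genotypes. Mx1-Cre acts in many interferon-responsive cells and is not restricted to HSCs.

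Values are log2 expression. Medians of the 9 arrays lay between 3.95 and 4.15. Their interquartile ranges were 2.22, 2.47 and 2.69 in WT, 2.53, 2.39 and 2.77 in Het and 2.83, 2.80 and 2.42 in KO arrays. By Xist and the Y-linked genes, females gave 2 of the 3 WT, 1 of the 3 Het and 1 of the 3 KO arrays. Y-linked genes read 2.22 to 3.32 on those 4 arrays and Xist read 3.58 to 4.22 on the other 5, so a reading up to 4.22 is called dim here: it can come from an absent transcript. The gate markers Kit and Slamf1, the gene of CD150, read above this level on all 9 arrays. Slamf1 read 4.64, 4.67 and 6.71 in WT, 6.61, 7.32 and 7.34 in Het and 7.94, 6.53 and 6.43 in KO cells. Slamf1 KO minus WT was 1.63 (limma unadjusted p = 0.0179, adjusted p = 0.543). Slamf1 Het minus WT was 1.75 (limma unadjusted p = 0.0124, adjusted p = 0.889). Kit KO minus WT was 0.39 (limma adjusted p = 0.717). Of the markers that the gate excludes, Cd48 read 3.63 to 5.13 and Flt3 3.55 to 5.36, with 4 and 2 arrays above the dim range. Those of Cd48 came from all genotypes, whereas both of Flt3 were WT. Flt3 read 4.99, 3.99 and 5.36 in WT, 3.93, 4.10 and 3.95 in Het and 3.55, 4.03 and 3.57 in KO cells. Its KO minus WT was −1.06 (limma unadjusted p = 0.00953, adjusted p = 0.475) and its Het minus WT −0.79 (adjusted p = 0.989). Cd48 and Flt3 belong to a list of 8 excluded and early progenitor genes, 7 of them tested. In KO against WT 1 was higher and 6 lower, and 0 were called with limma, beside 0.0421% of all genes. The higher gene was Cd34, which the gate does not use. It differed by 1.62 (limma unadjusted p = 0.000656, adjusted p = 0.206), with all KO arrays above all WT and Het arrays. Bcl11a read 8.73, 8.81 and 8.38 in WT, 8.34, 8.37 and 8.89 in Het and 7.82, 7.90 and 8.66 in KO cells. KO replicate 3 thus lies inside the WT range on this probe set, and results are also given without it where it matters. Bcl11a KO minus WT was −0.51 (SE 0.288, limma adjusted p = 0.655). A second Bcl11a probe set read 6.38, 8.08 and 6.93 in WT, 6.97, 6.70 and 7.44 in Het and 7.26, 6.94 and 7.39 in KO cells. On it all KO arrays lay inside the WT range and KO minus WT was 0.07 (SE 0.4). Pearson's r between both probe sets was 0.273. In sorted cells measured in bulk, fewer cells of a type and less RNA per cell cannot be told apart.

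RefSeq (build GRCm38.p6) gave the sequence around the start site, 250 bases before it and 50 after, for 5 of the 7 genes. The windows of Cysltr2, Alox5 and Ltc4s are shown because these are the genes with the largest differences between KO and WT. Capitals mark matches to 3 short words searched on both strands, which do not overlap one another: TGACCA, known as a binding word of BCL11A, AGATAA of GATA factors and TGTGGT of RUNX factors. The windows lie at chr14:73049065-73049364, chr6:116461129-116461428 and chr11:50238483-50238782, each on the minus strand, and are written 5′ to 3′.
Cysltr2: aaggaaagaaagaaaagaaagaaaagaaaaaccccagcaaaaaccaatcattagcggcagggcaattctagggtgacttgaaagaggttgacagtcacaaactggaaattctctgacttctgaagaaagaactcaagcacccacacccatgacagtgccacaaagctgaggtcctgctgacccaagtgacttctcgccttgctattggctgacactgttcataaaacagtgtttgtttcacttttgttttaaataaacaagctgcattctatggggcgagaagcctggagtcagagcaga
Alox5: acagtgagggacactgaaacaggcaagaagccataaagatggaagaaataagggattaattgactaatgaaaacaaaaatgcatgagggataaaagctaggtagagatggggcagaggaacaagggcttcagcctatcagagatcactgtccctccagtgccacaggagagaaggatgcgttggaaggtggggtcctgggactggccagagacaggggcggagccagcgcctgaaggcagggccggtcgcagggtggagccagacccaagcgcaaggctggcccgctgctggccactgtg
Ltc4s: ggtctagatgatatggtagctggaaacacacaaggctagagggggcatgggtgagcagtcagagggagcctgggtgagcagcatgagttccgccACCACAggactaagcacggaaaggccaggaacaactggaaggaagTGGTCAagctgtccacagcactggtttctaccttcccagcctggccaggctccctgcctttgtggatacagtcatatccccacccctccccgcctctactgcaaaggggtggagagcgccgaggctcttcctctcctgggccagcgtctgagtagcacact
None of the 3 words is in the Cysltr2 or Alox5 window. The Ltc4s window holds TGACCA once, read on the opposite strand as TGGTCA and beginning 111 bases before the start site, and TGTGGT once, read as ACCACA. Among 32851 windows of 300 bases, 13.6% hold TGACCA, 11.2% AGATAA and 16.8% TGTGGT. These matches are letters in a sequence and say nothing of binding. The Cysltr2 window is 43.7% G and C and the Alox5 window 55.7%, where the median window has 52.7%.

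Among the receptors, Cysltr2 read 4.86, 5.78 and 5.27 in WT cells, 6.81, 6.39 and 7.43 in Het cells and 9.04, 8.16 and 8.14 in KO cells. Every Het array lay above every WT array and every KO array above every Het array. The means were 5.30 ± 0.461, 6.88 ± 0.523 and 8.45 ± 0.514 (SD, n = 3 arrays each). Het exceeded WT by 1.57 (SE 0.365), or 2.98-fold, and KO exceeded Het by 1.57 (SE 0.365), or 2.97-fold. The Het mean lay 0.00 (SE 0.316) from the midpoint of the WT and KO means, so the steps from 0 to 1 and from 1 to 2 deleted alleles were of like size on the log2 scale. Complete ordering of the 9 arrays in this direction was seen for 28 of 16636 genes tested (0.168%); Cysltr2 was chosen for this pattern, so nothing is read from it here.

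The size of the Cysltr2 steps varied with the mice compared. Between KO and WT the difference was 3.08 in females (1 KO array, 2 WT arrays) and 2.82 in males (2 KO arrays, 1 WT array). Het minus WT was 2.37 in females (1 and 2 arrays) and 0.82 in males (2 and 1 arrays), and KO minus Het was 0.71 in females (1 array each) and 2.00 in males (2 arrays each). In each of these splits the direction was the same. Without KO replicate 3, KO minus WT was 3.30.

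**Figure D1:**
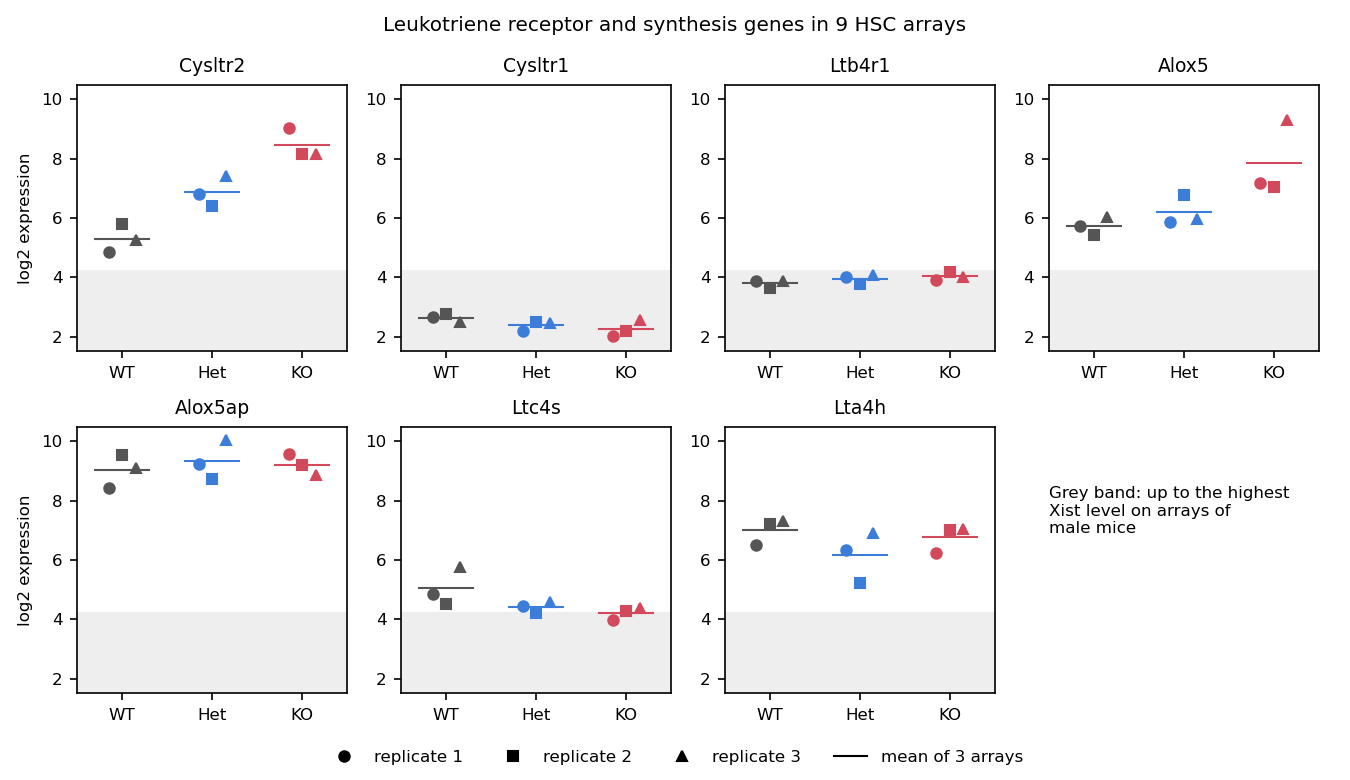
Log2 expression of the 7 genes on each of 9 arrays, by genotype, with a line at the mean of 3 arrays; the grey band ends at 4.22, the highest Xist reading on arrays of male mice. Cysltr2 separates into 3 steps, Cysltr1 and Ltb4r1 stay inside the grey band, and KO replicate 3 is the highest Alox5 reading at 9.30.

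Cysltr1, the other receptor for cysteinyl leukotrienes, was dim on all 9 arrays, where it read 2.01 to 2.75. It read 2.67, 2.75 and 2.49 in WT, 2.20, 2.49 and 2.45 in Het and 2.01, 2.19 and 2.57 in KO cells. The ranges overlapped between all pairs of genotypes, and the gene lay under the filter and was not tested across genes (KO minus WT −0.38, exact two-sided permutation p = 0.2, with 0.1 the lowest value possible for groups of 3).

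Ltb4r1, the high-affinity receptor for LTB4, was also dim on every array, at 3.65 to 4.19. It read 3.87, 3.65 and 3.86 in WT, 4.01, 3.76 and 4.06 in Het and 3.91, 4.19 and 4.0 in KO cells. KO and WT arrays did not overlap, but the lowest KO and the highest WT reading were 3.91 and 3.87. The difference between KO and WT was 0.24 (SE 0.209, limma adjusted p = 0.748).

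At the head of the synthesis pathway, Alox5, which encodes 5-lipoxygenase, read 5.72, 5.42 and 6.03 in WT cells, 5.87, 6.77 and 5.95 in Het cells and 7.19, 7.04 and 9.30 in KO cells. All KO readings lay above all WT and Het readings, while Het and WT overlapped. A separation of KO from both other genotypes in this direction was seen in 1.74% of genes tested. KO minus WT was 2.12 (SE 0.536), or 4.35-fold, and did not pass over all genes (limma unadjusted p = 0.00259, adjusted p = 0.312; exact permutation p = 0.1). KO minus Het was 1.65 (adjusted p = 0.998) and Het minus WT 0.47 (adjusted p = 0.992).

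KO replicate 3, the KO array inside the WT range on the first Bcl11a probe set, gave the highest Alox5 value. Without it, KO minus WT was 1.39 and KO minus Het 0.92. Among females, where this is the only KO array, KO exceeded WT by 3.43, and among males by 1.70. The place of the step also differed: Het minus WT was 0.08 in females and 0.90 in males, and KO minus Het 3.35 and 0.79. The Het mean of Alox5 lay 0.59 below the midpoint of WT and KO (−0.59, SE 0.465), a distance close to its standard error.

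A second Alox5 probe set read lower, and on it too KO lay above WT. It read 3.39, 3.44 and 3.23 in WT, 3.4, 3.28 and 3.87 in Het and 4.41, 3.76 and 5.66 in KO cells. KO and WT arrays again did not overlap, but KO replicate 2 at 3.76 lay below Het replicate 3 at 3.87. The separation of KO from Het was thus seen on the first probe set only. KO replicate 3 was again the highest, and only KO replicates 1 and 3 read above the dim range. On this probe set KO minus WT was 1.26 (SE 0.416, limma adjusted p = 0.527). Across the 9 arrays, which share the genotypes, both probe sets correlated with Pearson's r of 0.893. KO replicate 3, far above the other arrays on both, enters this value.

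Alox5ap, whose product presents arachidonic acid to 5-lipoxygenase, was measured well above the dim range in all cells and showed no separation of genotypes. It read 8.43, 9.55 and 9.10 in WT, 9.22, 8.74 and 10.06 in Het and 9.58, 9.20 and 8.86 in KO cells. KO exceeded WT by 0.19 (SE 0.390, limma adjusted p = 0.895) and Het minus WT 0.31 (adjusted p = 0.992). A second Alox5ap probe set gave −0.34 (SE 0.516) for KO minus WT, the opposite sign, with KO replicate 3 lowest at 7.39 and Het replicate 3 highest at 10.24, and correlated with the first at r of 0.623. The difference between KO and WT in Alox5ap therefore has no settled direction.

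**Figure D2:**
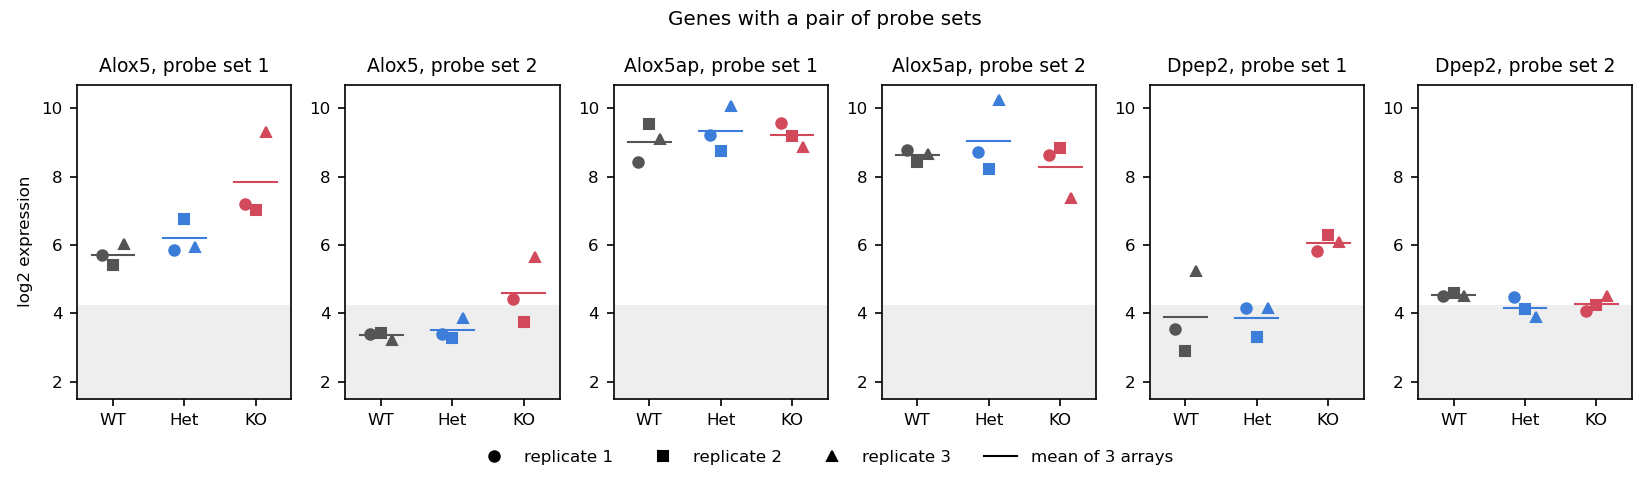
Log2 expression on 9 arrays for both probe sets of Alox5, Alox5ap and Dpep2, by genotype, with lines at the mean of 3 arrays and grey up to 4.22. Both Alox5 probe sets have all KO above all WT arrays, whereas the KO readings of Dpep2 near 6 appear on the first probe set and not on the second, which reads 3.89 to 4.59.

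In the arm that leads to cysteinyl leukotrienes, Ltc4s, the LTC4 synthase, read 4.86, 4.51 and 5.75 in WT, 4.46, 4.22 and 4.58 in Het and 3.98, 4.29 and 4.39 in KO cells. All KO arrays lay below all WT arrays, though the closest readings were 4.39 and 4.51, and KO replicate 1 lay in the dim range. For Ltc4s the KO minus WT difference was −0.82 (SE 0.315, limma unadjusted p = 0.0259, adjusted p = 0.563) and Het minus WT −0.62 (adjusted p = 0.992). WT replicate 3 carries much of this value: without it KO minus WT was −0.46.

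In the arm that leads to LTB4, Lta4h, the LTA4 hydrolase, read 6.5, 7.21 and 7.32 in WT, 6.35, 5.22 and 6.92 in Het and 6.22, 7.0 and 7.06 in KO cells. All genotypes overlapped. Het minus WT was −0.85 (SE 0.433, limma adjusted p = 0.992), and without Het replicate 2, the lowest array at 5.22, it was −0.38. KO minus WT was −0.25 (SE 0.433, adjusted p = 0.875).

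Apart from Cysltr2, 0 of the 5 tested members were called in KO against WT (limma adjusted p under 0.05), where 7 of 16636 genes, or 0.0421%, were called; 2 of the 5, Alox5 and Ltc4s, had an unadjusted p under 0.05, as had 1366 genes or 8.21%. KO and WT arrays did not overlap for 3 of the 5, namely Alox5, Ltc4s and Ltb4r1, against 13.8% of genes tested, and with 5 genes this is a description only. Their median KO minus WT difference was 0.19, where that of all genes tested was −0.04. In Het against WT 0 of the 5 were called, where 0.0% of all genes were called with limma; 0 of the 5 had an unadjusted p under 0.05, against 813 genes or 4.89%, and 0 of the 5 had arrays that did not overlap, against 8.41%. In KO against Het 0 of the 5 were called, again beside 0.0% of all genes; 1 of the 5, Alox5, had an unadjusted p under 0.05 (0.0115), against 759 genes or 4.56%. Alox5 was also the 1 member of the 5 whose KO and Het arrays did not overlap, against 9.82% of genes. On its second probe set they did overlap. KO minus WT and Het minus WT share the WT arrays, so their agreement in sign carries no independent weight.

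**Figure D3:**
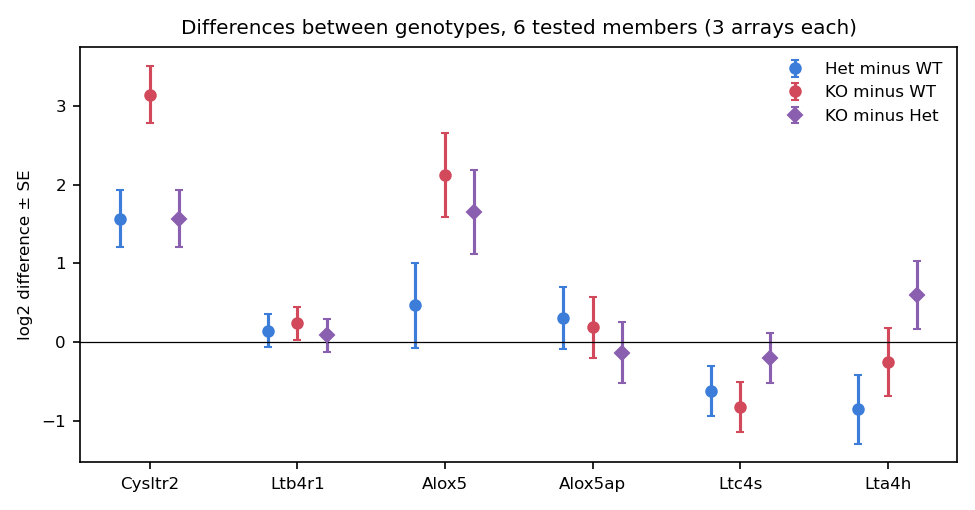
Differences between genotypes in log2 units with the limma standard error, for the 6 tested genes, each from 3 arrays per genotype. Cysltr2 has equal steps of 1.57 from WT to Het and from Het to KO, and the Alox5 difference of 2.12 divides into 0.47 from WT to Het and 1.65 from Het to KO over both sexes.

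Of 32 other genes listed for the leukotriene pathway, 29 were measured by a single-symbol probe set and 24 tested. None passed in KO against WT with limma (12 higher, 12 lower, median difference 0.00); 4 were higher and 1 lower at an unadjusted p under 0.05, where 5.4% and 2.81% of all genes were. In Het against WT 0 passed (13 higher, 11 lower, median 0.03), with 1 higher and 2 lower at an unadjusted p under 0.05, against 3.12% and 1.77% of all genes. In KO against Het 0 passed, with 14 higher and 10 lower, a median of 0.16, and 1 higher and 0 lower at an unadjusted p under 0.05, against 2.61% and 1.95% of all genes.

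The largest difference among these genes belonged to Dpep2, a membrane dipeptidase that turns LTD4 into LTE4. It read 3.54, 2.90 and 5.24 in WT, 4.17, 3.30 and 4.15 in Het and 5.84, 6.30 and 6.08 in KO cells, so that KO stood above both other genotypes while Het and WT overlapped. KO minus WT was 2.18 (SE 0.515, limma unadjusted p = 0.00163, adjusted p = 0.274), starting from dim readings on 2 of 3 WT arrays and on all Het arrays. A second Dpep2 probe set did not show it: its KO minus WT was −0.26 (SE 0.232), and r between both sets was −0.121. Dpep1, a related dipeptidase, differed by −0.44 and Ggt5, which removes glutamate from LTC4 to give LTD4, by −0.23.

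Mgst2, a microsomal glutathione transferase that can also make LTC4, read 4.83, 5.28 and 5.67 in WT, 5.11, 6.83 and 5.75 in Het and 6.13, 6.78 and 6.31 in KO cells. All KO arrays exceeded all WT arrays, the reverse of Ltc4s, and KO minus WT was 1.15 (SE 0.414, limma adjusted p = 0.549). Abcc1, the exporter of LTC4, differed by 0.83 with overlapping arrays (adjusted p = 0.614).

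Among enzymes that supply arachidonic acid, Acsl4, which attaches it to coenzyme A for storage in phospholipids, read 5.44, 4.59 and 5.09 in WT, 6.40, 6.16 and 5.84 in Het and 6.44, 5.82 and 5.79 in KO cells. Both Cre-carrying groups lay above all WT arrays, by 1.09 in Het (limma adjusted p = 0.731) and 0.98 in KO cells (adjusted p = 0.449), and did not differ from each other in range. Pla2g6, a calcium-independent phospholipase, differed by 0.72 between KO and WT (adjusted p = 0.537). Pla2g15, a lysosomal phospholipase, read 7.75, 5.82 and 6.96 in WT, 7.61, 11.17 and 5.5 in Het and 9.29, 8.89 and 8.06 in KO cells. Its KO and WT arrays did not overlap, but the Het arrays spanned both, and the difference of 1.90 had a standard error of 1.13 (adjusted p = 0.672). On a second Pla2g15 probe set KO minus WT was 0.88 (SE 0.386, limma adjusted p = 0.607) with overlapping arrays, and r between both sets was 0.318. Pla2g4a, the cytosolic phospholipase that feeds 5-lipoxygenase, read 6.36, 7.73 and 8.20 in WT and 8.06, 7.97 and 6.90 in KO cells and differed by 0.21. On the side of LTB4 breakdown, Cyp4f18, a hydroxylase of LTB4, differed by −0.60 between KO and WT (adjusted p = 0.599).

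**Figure D4:**
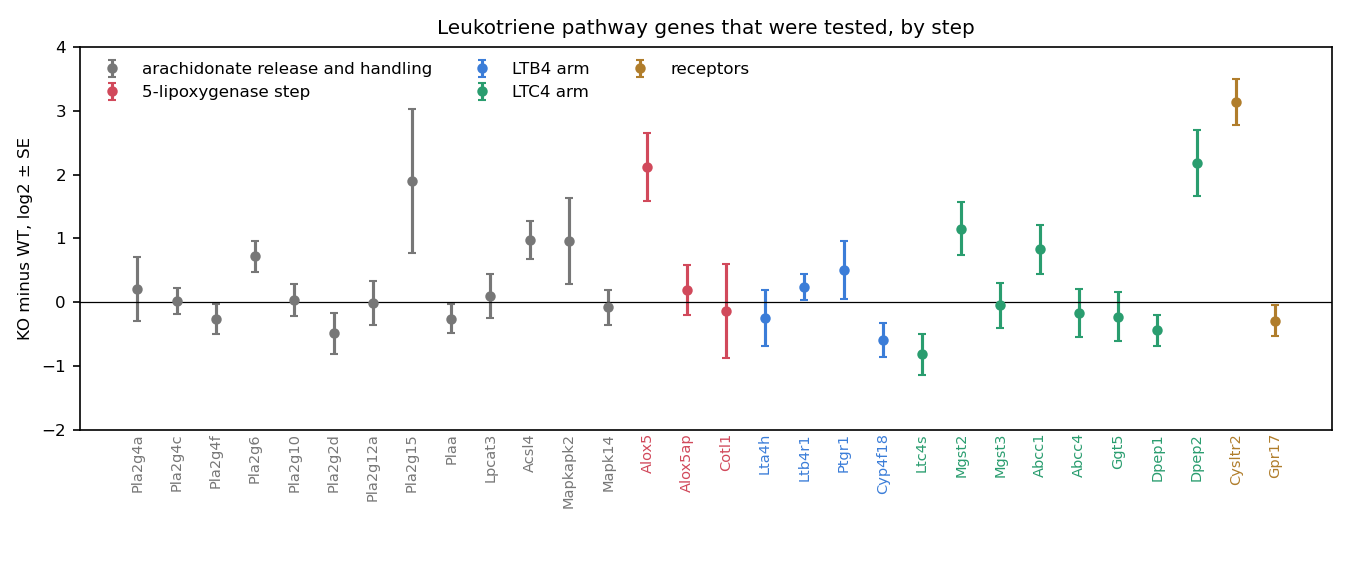
KO minus WT difference in log2 units with its standard error for the 30 leukotriene pathway genes that were tested, grouped by step (3 arrays per genotype). Cysltr2 at 3.14, Dpep2 at 2.18 and Alox5 at 2.12 stand highest, followed by Pla2g15 at 1.90 with a standard error of 1.13, and other genes of the same steps lie on both sides of 0, Dpep1 at −0.44 and Ltc4s at −0.82 among them.

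Other receptors reported to respond to cysteinyl leukotrienes were low. Oxgr1, proposed as a receptor for LTE4, read 2.75 to 3.61 on the 9 arrays, and Gpr17, a relative of the cysteinyl leukotriene receptors, 3.98 to 4.85 with a KO minus WT difference of −0.29. Among 18 listed receptors of the same branch (purine, lysophosphatidic acid and protease-activated receptors), 15 were measured, 12 tested and 0 called in KO against WT with limma (9 higher, 3 lower, median 0.16; 1 in each direction at an unadjusted p under 0.05). For all lists compared between KO and WT the share over all genes is the one given above, 0.0421% called, with 5.4% higher and 2.81% lower at an unadjusted p under 0.05. F2rl2, a protease-activated receptor of platelets, differed by −1.18 (adjusted p = 0.312) and P2ry13, an ADP receptor, by 1.58 (adjusted p = 0.563).

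Downstream of the receptors, 18 of 21 listed Gq signalling genes were tested and 0 called in KO against WT with limma (11 higher, 7 lower, median 0.24; 2 higher and 0 lower at an unadjusted p under 0.05). Prkce, a protein kinase C isoform, differed by 0.89 (adjusted p = 0.358), and Gnaq, the Gq alpha subunit, by 0.69 (adjusted p = 0.592). Prkca, another protein kinase C isoform, differed by −0.71 and Plcb2, a phospholipase C of blood cells, by 0.44 (adjusted p = 0.628 for both), and Arrb1, an arrestin, and Plcb4, another phospholipase C, by 0.79 and 0.65. The other lipoxygenases were low in these cells. They were listed with Gpx4, a glutathione peroxidase and not a lipoxygenase, which read 5.67 to 6.32. Of these 7 genes, Gpx4 included, 4 never read above the dim range. Of the 6 tested, 0 were called (median −0.08, 0 at an unadjusted p under 0.05). Alox15, the lipoxygenase of eosinophils and macrophages, differed by −0.39 (adjusted p = 0.637). In the parallel prostanoid pathway 15 of 20 genes were tested and 0 called (4 higher, 11 lower, median −0.15; 1 higher at an unadjusted p under 0.05). Tbxas1, thromboxane synthase, differed by 1.12 (adjusted p = 0.563) and Ptges, a prostaglandin E synthase, by −0.53 (adjusted p = 0.615).

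Markers of cells known to carry these genes were read on the same arrays. Of 12 mast cell and basophil genes 8 never exceeded the dim range, with a list mean of 3.2 to 3.35 in WT, 3.08 to 3.38 in Het and 3.02 to 3.25 in KO cells, and Cpa3, the mast cell carboxypeptidase, differed by −0.87 between KO and WT. Of 7 measured eosinophil genes 5 never exceeded it, with list means of 3.27 to 3.60, 3.22 to 3.26 and 2.90 to 3.30, and Prg2 and Epx, granule proteins that define the cell, stayed at or under 3.96. Neither list had a higher mean in KO than in WT cells.

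The list mean of 11 neutrophil genes was 4.81 to 5.63 in WT, 4.48 to 5.83 in Het and 4.32 to 4.50 in KO cells, and S100a8, a calcium-binding protein abundant in neutrophils, differed by −3.86 between KO and WT (limma adjusted p = 0.41). Of 10 neutrophil genes tested, 3 were higher and 7 lower in KO than in WT. With limma 0 were called, and 0 were higher and 4 lower at an unadjusted p under 0.05. Monocyte and macrophage genes had list means of 4.43 to 4.81 in WT, 4.38 to 4.62 in Het and 4.39 to 4.76 in KO cells over 13 genes, of which 4 never exceeded the dim range. Of 12 tested, 3 were higher and 9 lower in KO than in WT (median −0.19). With limma 0 were called, beside 0.0421% of all genes. At an unadjusted p under 0.05, 2 were higher and 1 lower, where 5.4% and 2.81% of all genes were. These are Cd68, a lysosomal protein of macrophages, at 1.63, Itgam, an integrin of myeloid cells, at 1.21 and Lyz2, lysozyme, at −1.03 (limma adjusted p = 0.557, 0.563 and 0.427). On KO replicate 3, where Alox5 was highest, Itgam read 6.10, its highest value, whereas Lyz2 at 7.58 and S100a8 at 2.31 had their lowest values and Cd68 at 7.47 its lowest among KO arrays. The part of myeloid cells in the Alox5 readings was not tested.

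The list means of HSC, endothelial, megakaryocyte and erythroid genes were ordered like Cysltr2 by genotype mean. The mean of 14 HSC markers was 5.84 to 7.05 in WT, 7.27 to 7.56 in Het and 7.48 to 7.94 in KO cells, and that of 10 endothelial genes 4.48 to 4.84, 4.87 to 5.10 and 5.36 to 5.70. Arrays overlapped between genotypes for 6 megakaryocyte genes (genotype means 6.03, 6.38 and 6.46) and 4 erythroid genes (6.35, 6.55 and 6.60). Between KO and WT, 3 megakaryocyte genes were higher and 3 lower, and 3 erythroid genes were higher and 1 lower. In the endothelial list 6 of 10 tested genes were higher and 4 lower in KO than in WT (4 higher and 0 lower at an unadjusted p under 0.05). There 1 gene passed in KO against WT, beside 0.0421% of all genes. It was Sox18, an endothelial transcription factor, which rose by 2.92 (SE 0.33, limma adjusted p = 0.0289). Its WT readings, 4.08, 3.61 and 3.69, were all dim. The call does not stand in the settings, given at the end, where 0 of all genes were called. Pecam1, an adhesion molecule that HSCs also carry, differed by 1.97 (limma adjusted p = 0.133). Cdh5, the cadherin that defines endothelium, read 3.91, 4.30 and 4.46 in WT, 4.33, 2.62 and 3.5 in Het and 3.59, 4.09 and 4.38 in KO cells, overlapping throughout. In the HSC list all 14 genes were higher in KO than in WT, with a median difference of 1.10 and 0 called with limma (9 higher at an unadjusted p under 0.05), where 7567 of 16636 genes were higher and 5.4% were higher at that p. In the lists of B cells, T and NK cells, megakaryocytes and erythroid cells 5, 7, 6 and 4 genes were tested and 0 called in KO against WT with limma, beside 0.0421% of all genes (0, 1, 2 and 0 higher and 0, 1, 0 and 0 lower at an unadjusted p under 0.05, where 5.4% and 2.81% of all genes were). The part of either group of cells in the Cysltr2 readings was not tested.

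**Figure D5:**
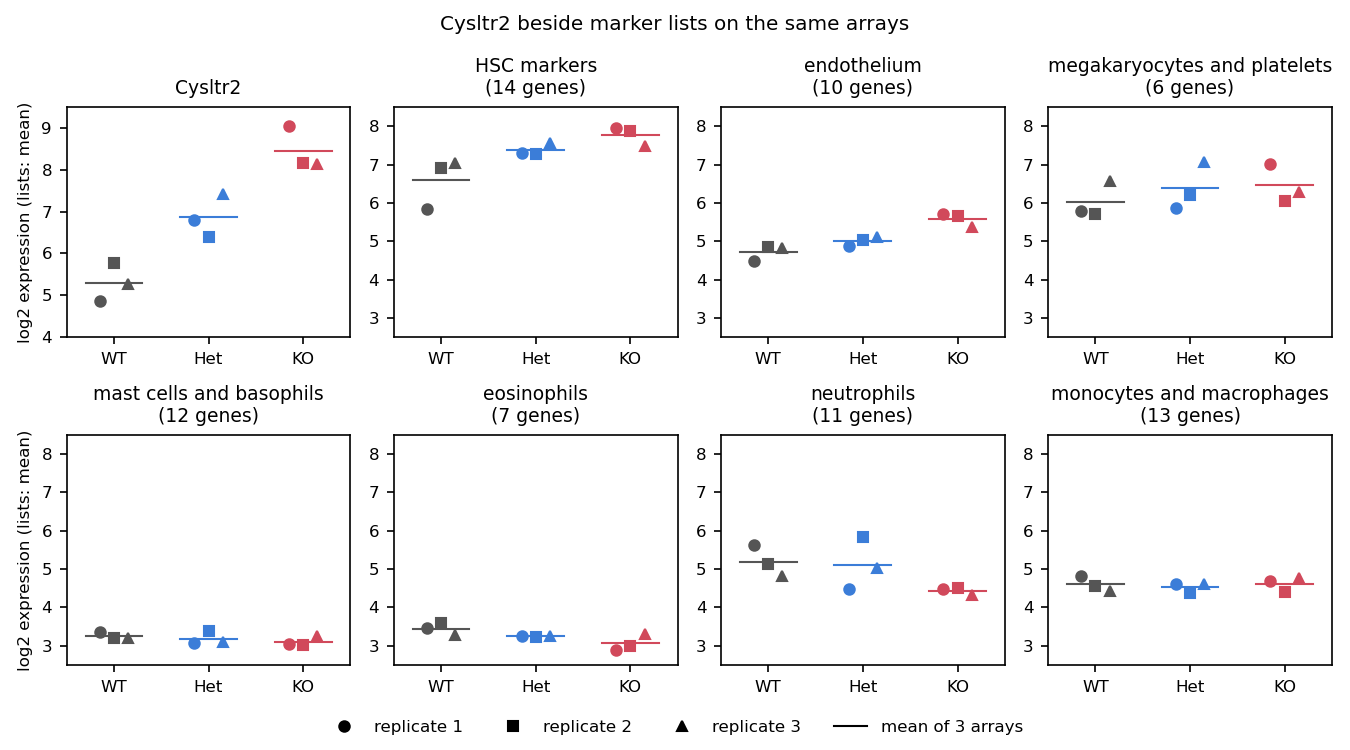
Log2 expression of Cysltr2 and the mean log2 expression of 7 marker lists on the same 9 arrays, by genotype, with lines at the mean of 3 arrays. The means of the HSC and endothelial lists are higher on every KO than on every WT array, though 4 of 10 endothelial genes were lower in KO. The means of the mast cell and eosinophil lists stay at or under 3.60.

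Genes whose pattern over the 9 arrays was most like that of Cysltr2 were sought among 9110 named genes whose readings span at least 1. The 5 highest were Tfr2, transferrin receptor 2 (Pearson's r 0.99), Mllt3, a chromatin reader of HSCs (0.974), Lpcat4, a lysophospholipid acyltransferase (0.966), Golgb1, a Golgi protein (0.966), and Fcer1g, the signalling subunit of Fc receptors (0.964). The arrays share the genotypes, which make up much of these values. After subtraction of genotype means, r was 0.937, 0.859, 0.882, 0.873 and 0.666. The genes were picked for their high r on these same 9 arrays, which also raises r after the subtraction. All these values, and those for Alox5 and Alox5ap below, are therefore a description only. Tfr2 read 5.71, 5.95 and 5.82 in WT, 6.47, 6.21 and 6.77 in Het and 7.63, 6.94 and 7.05 in KO cells, with the same highest array in KO, replicate 1, and in Het, replicate 3, as Cysltr2. For Alox5 the most alike were Nat9 (0.955), Slc35d3 (0.947) and Cog7 (0.914), and KO replicate 3 was the highest array for all of these, at 5.71, 6.03 and 6.36. For Alox5ap they were Cerox1 (0.941), Phldb3 (0.941) and Eif2a (0.94), each highest on Het replicate 3.

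The genes beside Cysltr2 on its chromosome had smaller differences. Of the 6 nearest protein-coding genes in the RefSeq order, 3 on each side, 3 were measured here. Fndc3a, a fibronectin-domain protein, differed by 0.40 between KO and WT, Rcbtb2 by −0.05 and Rb1, the retinoblastoma protein, by 0.13 (limma adjusted p = 0.701, 0.966 and 0.898). Beside Alox5, all 6 were measured: Washc2 differed by 0.70, Zfand4 by 0.18 and Marchf8, a ubiquitin ligase, by 0.84 (adjusted p = 0.628, 0.864 and 0.572), and the olfactory receptor genes Olfr211, Olfr212 and Olfr213 by −0.20, −0.41 and −0.21.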

How the data were processed

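RNA of sorted HSCs was amplified by Ribo-SPIA, biotin-labelled and read on Affymetrix Mouse Gene 2.0 ST chips, per the protocols in the labels; amplification can widen the spread between arrays. The authors deposited log2 values, 1 per probe set, and their processing tool was RMA, per the submitters' processing notes. RMA subtracts background and equalizes arrays, which compresses differences of dim genes. Its version and any build were not given in the sources used here. Of 41345 probe sets, 23521 had 1 gene symbol, 1814 several and 16010 were not listed in the platform annotation; 23328 symbols were checked by gene identifier. For genes with several probe sets, the one highest on average over the 9 arrays was used. Genes averaging less than 3.31, the 25th percentile, were left out, which kept 16636 of 22180. limma 3.58.1 in R 4.3.3 was fitted with a mean per genotype (6 residual and 4.26 prior degrees of freedom), with two-sided Benjamini-Hochberg adjusted p over all genes tested, and tested on simulated data. Permutation tests were exact and two-sided. The number of arrays, not a read depth, limits precision: the median standard error of KO minus WT was 0.298. Named genes were the 7 members, genes from among the up to 6 per pathway list and 4 per other list with the smallest p in KO against WT, and the genes most alike in pattern; Dpep1, Ggt5, Pla2g4a, Pla2g15, Oxgr1, Gpr17, the chromosomal neighbours, Kit, Slamf1, Cd48, Flt3, Cdh5 and the second probe sets were added after values were seen. The members and lists were chosen with earlier results of these data known. Alternatives changed the filter, probe sets, normalization, covariates, weights and arrays. Same-numbered arrays were not paired: correlations of their deviations ran from −0.1853 to 0.2294.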

Additional observations from a re-analysis of the deposited data

Results flagged for a closer look

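Alox5ap went in opposite directions in the sexes when Het was compared with WT. In female mice the Het array, at 10.06, lay above both WT arrays (8.43 and 9.10), a difference of 1.29, whereas in male mice both Het arrays (9.22 and 8.74) lay below the WT array (9.55), a difference of −0.57. Cysltr1 did so when KO was compared with Het, by 0.12 in females (1 array each) and −0.25 in males (2 arrays each), with all readings dim. Mean differences also had opposite signs for Alox5ap KO minus Het (−1.20 in females, 0.41 in males) and Lta4h KO minus WT (0.15 and −0.60). So they had for Lta4h Het minus WT (0.01 and −1.42) and Ltb4r1 KO minus Het (−0.06 and 0.17, all readings dim). In each of these the arrays overlapped in 1 sex. For Alox5ap KO minus WT (0.09 and −0.16) they overlapped in both sexes. None of these differences between the sexes was tested.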

How the results depend on the processing

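Over 11 alternative settings the Cysltr2 difference was 2.80 to 3.14 for KO minus WT, 1.42 to 1.57 for Het minus WT and 1.39 to 1.63 for KO minus Het, and with each array left out 2.85 to 3.38, 1.30 to 1.82 and 1.27 to 1.85. The counts of members other than Cysltr2, and of other pathway genes, called in each comparison were 0 under every one of these. With an array left out, Alox5ap ran from −0.11 to 0.45 (KO minus WT), −0.05 to 0.61 (Het minus WT) and −0.43 to 0.23 (KO minus Het), Lta4h KO minus WT from −0.5 to 0.02 and Ltb4r1 KO minus Het from −0.00 to 0.15. Alox5 KO minus WT was 1.69 to 2.62 over the settings and 1.39 to 2.52 with an array left out. The sign of Alox5ap KO minus WT turned with the mean of its probe sets (−0.08), with an added interquartile range term (−0.25) and without WT replicate 1 (−0.11). The sign also turned without Het replicate 3 for its Het minus WT (−0.05) and KO minus Het (0.23), without KO replicate 3 for the latter (0.05), without KO replicate 1 for Lta4h KO minus WT (0.02) and without Het replicate 2 for Ltb4r1 KO minus Het (−0.00). With the replicate number as a block, which the arrays do not bear out as a pairing, Cysltr2 KO minus WT was 3.14 and 0 of all genes were called in place of 7. That count was also 0 with an interquartile range term, 1 with only the 2 genotypes compared, 3 with sex as a term or quantile normalization, 4 with a filter at the median and 24 with array weights. With an array left out it was 0 to 15, at 0 without WT replicate 1 or KO replicate 1 and at 15 without KO replicate 3. The causes of these changes were not tested. With 3 arrays per genotype, the KO minus WT differences of Ltb4r1, Alox5ap and Lta4h lie near or under their standard errors, and dim genes cannot be told from absent ones.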
